A study of Oryctolagus cuniculus with 9 samples.

Results

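A set of 9 genes of transforming growth factor beta (TGF-beta) and YAP signalling was followed across all 9 libraries of the series: CYR61, CTGF, ANKRD1, TGFBI, TGFB1, TGFB2, SMAD7, SKIL and AMOTL2. They were taken by symbol from the deposited expression table, which holds 19511 loci, and each of the 9 symbols had 1 row. The libraries are of wild-type rabbit primary cells labelled as parathyroid cells. The 3 control libraries are of untreated cells, labelled day 0. The 3 hypoxia/reoxygenation libraries (H/R) are of cells given 6 h of hypoxia and 6 h of reoxygenation without gallic acid, a culture model of ischaemia and reperfusion. The 3 GA+H/R libraries are of cells given 1200 µM gallic acid, a plant phenolic acid, for 24 h, followed by the hypoxia and reoxygenation that the H/R cells received. Whether a group's libraries stem from different animals or cultures is not in the labels, so p-values measure the spread between libraries, which may be technical. Nor is it given whether time in culture was matched between the groups.

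TGF-beta is secreted in a latent complex, is released by integrins and proteases, and acts through a pair of serine/threonine kinase receptors that phosphorylate SMAD2 and SMAD3. These join SMAD4 in the nucleus and switch on genes of matrix and adhesion together with their own inhibitors, among them SMAD7 and SKIL. YAP and TAZ are transcriptional coactivators that bind TEAD factors. The kinases of the Hippo pathway hold them in the cytoplasm, while cell spreading, stiffness and actin tension let them into the nucleus. CYR61, CTGF, ANKRD1 and AMOTL2 are among the most used readouts of YAP and TEAD, and CTGF is a target of both pathways. In stromal cells both pathways are known for their part in fibrosis.

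Values are FPKM, which count fragments per length of transcript and per size of library. H/R against control is called the H/R step below, GA+H/R against H/R the GA step, and GA+H/R against control both steps combined. As deposited, the values of the median locus moved by -1.25 (log2) at the H/R step and by -0.50 at the GA step. Each library was therefore rescaled by a factor taken from its typical locus, 1.77 to 1.96 for control libraries, 0.670 to 0.672 for H/R and 0.422 to 0.424 for GA+H/R. The result is called scaled FPKM. Changes are log2 differences of scaled FPKM plus 1, tested by limma over 10956 loci with Benjamini-Hochberg adjustment, and rose or fell is used for an adjusted p under 0.05 on that scale. The deposited scale is named where it is used. Read depth is unknown, and levels of different genes are not compared.

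Control 1 stood apart from the other controls. Its log2 values correlated with those of controls 2 and 3 at r = 0.985 and 0.983, against 0.997 between those 2, and some results are also given without it. Mean deposited FPKM of PTH, the parathyroid hormone transcript, was 0.123, 0.0240 and 0.0172 (control, H/R and GA+H/R), and 2 of the 6 parathyroid markers present passed the expression filter. All 5 epithelial markers in the table lay under the filter. Fibroblast markers, 10 in the table of 11 listed, summed to 65574 (control 1), 106625 and 106339 scaled FPKM in the controls, against 43840 to 44043 for H/R libraries and 32870 to 33296 for GA+H/R libraries. Of the 9 tested, 7 fell and 1 rose at the H/R step, and 4 fell and 1 rose at the GA step, or 5 and 3 there without control 1. Smooth muscle and pericyte markers, TAGLN among them, summed to 1370 (control 1), 2106 and 2184 scaled FPKM in the controls. Their sums were 3831 to 3855 for H/R libraries and 3121 to 3188 for GA+H/R libraries. Of 5 tested, 0 fell and 1 rose at the H/R step, or 0 and 2 without control 1. At the GA step 3 fell and 0 rose, or 4 and 0 without control 1. Of all loci, 28.4% fell and 29.2% rose at the H/R step. At the GA step 15.2% fell and 18.7% rose, or 20.2% and 22.8% without control 1. In such bulk libraries, fewer cells of a type and less RNA per cell cannot be told apart.

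Relative to the median locus the 9 genes, all of which were tested, split. At the H/R step 5 fell (CYR61, CTGF, SKIL, AMOTL2 and TGFB2) and 2 rose (TGFBI and ANKRD1). Over all loci 57.6% were called there, 28.4% lower and 29.2% higher, so a call in itself is common. The GA step had 3 falls (CYR61, CTGF and AMOTL2) and 1 rise (TGFBI), where 33.9% of loci were called, 15.2% lower and 18.7% higher. Over both steps combined 6 fell and 2 rose, where 69.2% were called, 35.5% lower and 33.7% higher. The median log2 change of the 9 genes was -0.22, -0.10 and -0.53 in the 3 comparisons, and that of all loci 0.00, 0.00 and -0.05.

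CYR61, CTGF and AMOTL2 fell at both steps, as did 7.90% of loci, and TGFBI rose at both, as did 12.3%. A fall followed by a rise was called for 2.42% of loci and a rise followed by a fall for 1.48%, and for no member. Counted by groups that do not overlap, 5 members were lower and 2 higher at the H/R step (33.0% and 34.1% of loci), 3 lower and 2 higher at the GA step (24.5% and 27.4%), and 6 lower and 2 higher over both steps combined (36.5% and 35.0%).

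Without control 1, 4 members fell and 2 rose at the H/R step, where 59.4% of loci were called, 28.5% lower and 30.9% higher. At the GA step 3 then fell and 2 rose (43.0% called, 20.2% lower and 22.8% higher), and over both steps combined 5 fell and 2 rose (69.7% called, 35.0% lower and 34.7% higher). The comparisons share libraries, so they are not independent of each other.

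**Figure D1:**
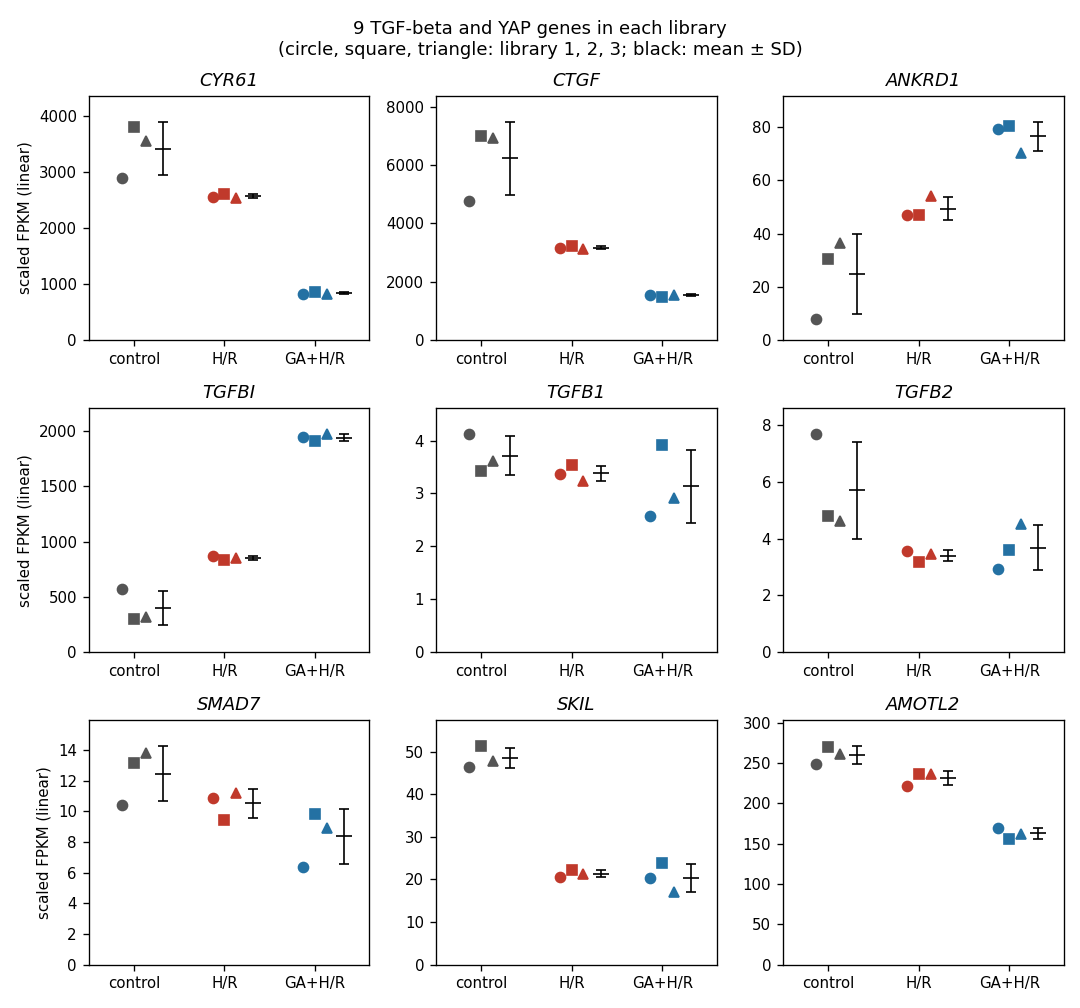
Scaled FPKM (linear axis from 0) of the 9 genes in each library of control, H/R and GA+H/R, with a circle, square and triangle for libraries 1, 2 and 3 and the mean ± SD in black. CYR61, CTGF and AMOTL2 lay lower and TGFBI and ANKRD1 higher from group to group, and SKIL dropped once, from 48.5 in control to 21.4 in H/R.

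CYR61 and CTGF are secreted matricellular proteins of the CCN family, which bind integrins and growth factors and are switched on by YAP and TEAD. CYR61 was at 2890, 3813 and 3562 scaled FPKM in controls 1 to 3, at 2554, 2617 and 2543 in H/R and at 830, 853 and 816 in GA+H/R. The groups did not overlap, and the larger step was that between H/R and GA+H/R. CYR61 fell by 0.40 ± 0.09 (SE, adjusted p = 0.00435 by limma) at the H/R step and by 1.63 ± 0.09 (adjusted p = 7.50e-06) at the GA step, where its mean was 3.09-fold lower. Its deposited group means were 6292 ± 616, 1725 ± 27.5 and 352 ± 8.76 FPKM (control, H/R and GA+H/R, SD, n = 3).

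CTGF, the connective tissue growth factor, was at 4780, 6989 and 6923 scaled FPKM in the controls, at 3167, 3214 and 3118 in H/R and at 1551, 1492 and 1551 in GA+H/R. Control 1 was the lowest control for both CCN genes, and still above every H/R library. CTGF fell by 0.95 ± 0.13 (adjusted p = 2.29e-04 by limma) in H/R and by a further 1.05 ± 0.13 (adjusted p = 4.56e-04) in GA+H/R, with means 1.97-fold and 2.07-fold lower at the 2 steps. Without control 1 the first step was -1.12 (adjusted p = 3.65e-09). The summed fibroblast markers moved the same way, also in control 1, and their part in the fall of CTGF was not tested. COL1A1, COL1A2, COL3A1 and POSTN are among these markers and also among the TGF-beta targets below, so the lists are not independent.

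AMOTL2 encodes an angiomotin family protein of cell junctions that binds YAP and promotes its inactivation by LATS kinases, and its gene is in turn a YAP target. It was at 249, 270 and 261 scaled FPKM in the controls, at 221, 236 and 236 in H/R and at 170, 156 and 162 in GA+H/R. The groups did not overlap, but controls and H/R lay close. The first step was -0.17 ± 0.06 (adjusted p = 0.0335 by limma), a call that was lost without control 2 (-0.13, adjusted p = 0.139), control 3 (-0.16, adjusted p = 0.1025) or any one of the H/R libraries (-0.14 to -0.19, adjusted p from 0.0589 to 0.117). It was also lost with only the 2 groups compared (adjusted p = 0.0540) and with plain eBayes (0.0814), and the change turned to 0.06 after quantile normalization. The second step, a fall by 0.50 ± 0.06 (adjusted p = 3.42e-04), was called in all 17 alternatives tried.

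ANKRD1 encodes an ankyrin repeat protein of the nucleus and the sarcomere, and is used beside CYR61 and CTGF to read YAP activity. Its scaled FPKM was 7.90, 30.3 and 36.3 in the controls, 47.0, 46.9 and 54.3 in H/R and 79.2, 80.3 and 70.4 in GA+H/R. It thus lay higher in every H/R library than in every control and highest in GA+H/R, with control 1 far below the other controls. ANKRD1 rose by 1.20 ± 0.45 (adjusted p = 0.0448 by limma) at the H/R step. The call was lost without any one of the H/R libraries (1.13 to 1.24, adjusted p from 0.0871 to 0.111) or the GA+H/R libraries (1.20 to 1.21, adjusted p from 0.0603 to 0.0613), while without control 1 the rise was 0.57 ± 0.11 (adjusted p = 0.00197).

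ANKRD1 at the GA step was at 0.62 ± 0.45 (adjusted p = 0.313 by limma), and without control 1 at 0.62 ± 0.09 (adjusted p = 0.00129). Both steps combined gave a rise of 1.83 ± 0.45 (adjusted p = 0.00545), and of 1.19 without control 1. On the deposited scale the direction was not kept. There ANKRD1 was at 15.5, 55.0 and 64.1 FPKM in the controls, with means of 33.1 ± 2.90 (H/R) and 32.4 ± 2.30 (GA+H/R, SD, n = 3), with log2 changes of -0.20, -0.03 and -0.23 in the 3 comparisons, none of them called.

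TGFBI, the TGF-beta-induced matrix protein that links collagens to integrins, moved against CTGF. It was at 576, 301 and 319 scaled FPKM in the controls, at 872, 834 and 852 in H/R and at 1943, 1907 and 1970 in GA+H/R. The groups did not overlap, and control 1 was the highest control. TGFBI rose by 1.16 ± 0.21 (adjusted p = 0.00125 by limma) in H/R and by 1.19 ± 0.21 (adjusted p = 0.00275) at the GA step, and by 2.35 ± 0.21 (adjusted p = 9.77e-06) over both steps. It was also called higher in each comparison without control 1.

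On the deposited scale TGFBI was at 1132, 545 and 563 FPKM in the controls, with means of 572 ± 11.9 (H/R) and 821 ± 12.3 (GA+H/R, SD, n = 3). All GA+H/R libraries lay above all H/R libraries there too, as for 3.46% of all loci, but the changes of -0.30 at the H/R step, 0.52 at the GA step and 0.22 over both steps combined were not called (adjusted p = 0.245, 0.0740 and 0.370 by limma). TGFBI is also known from macrophages. The 9 macrophage markers in the table, of 12 listed, summed to 2.19, 27.9 and 31.0 scaled FPKM in the controls. The sum was 25.6 to 26.2 for H/R libraries and 262 to 281 for GA+H/R libraries. The 5 tested rose at the GA step, as did 18.7% of all loci. Among them, CD14 and FCER1G passed the filter only through the GA+H/R libraries. The part of the macrophage markers in the rise of TGFBI was not tested. Control 1 had the lowest macrophage marker sum of all libraries and the highest TGFBI of the controls. That contrast rests on 1 library that stood apart, and it was not tested.

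SKIL and SMAD7 are inhibitors that TGF-beta itself induces. SKIL encodes the corepressor SnoN, which binds SMADs on DNA. It was at 46.5, 51.3 and 47.8 scaled FPKM in the controls, at 20.6, 22.3 and 21.2 in H/R and at 20.3, 23.8 and 17.0 in GA+H/R. The controls lay above all other libraries, and H/R and GA+H/R overlapped. SKIL fell by 1.15 ± 0.12 (adjusted p = 4.34e-05 by limma) at the H/R step, the largest fall of the 9 genes at that step, and the GA step was at -0.08 ± 0.12 (adjusted p = 0.622).

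SMAD7 encodes the inhibitory SMAD that blocks the type I receptor and recruits ubiquitin ligases to it. It was at 10.4, 13.1 and 13.8 scaled FPKM in the controls, at 10.9, 9.44 and 11.2 in H/R and at 6.37, 9.81 and 8.93 in GA+H/R. Neighbouring groups overlapped, and only GA+H/R lay below all controls. Neither step was called (-0.22 ± 0.16, adjusted p = 0.278, and -0.31 ± 0.16, adjusted p = 0.169, by limma), while both steps combined gave a fall by 0.53 ± 0.16 (adjusted p = 0.0167), which was lost without control 2 (-0.49, adjusted p = 0.0550) or control 3 (-0.45, adjusted p = 0.0628). With libraries scaled to equal totals, SMAD7 was called lower at the H/R step (-0.48, adjusted p = 0.0288).

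TGFB1 and TGFB2 encode ligands. TGFB1 was at 4.12, 3.42 and 3.61 scaled FPKM in the controls, 3.37, 3.53 and 3.24 in H/R and 2.57, 3.91 and 2.91 in GA+H/R. All 3 groups overlapped, and the 3 comparisons gave -0.10, -0.10 and -0.20 (adjusted p = 0.522, 0.603 and 0.201 by limma). Both steps combined were called lower in 3 alternatives, without GA+H/R 2 (-0.34, adjusted p = 0.0304), after quantile normalization (-0.38, adjusted p = 0.0246) and with equal totals (-0.48, adjusted p = 0.0216). TGFB2 was at 7.67, 4.80 and 4.63 in the controls, 3.57, 3.19 and 3.44 in H/R and 2.94, 3.58 and 4.501 in GA+H/R.

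The controls lay above the other libraries for TGFB2, with control 1 the highest. It fell by 0.58 ± 0.19 (adjusted p = 0.0247 by limma) at the H/R step, a call lost without control 1 (-0.35, adjusted p = 0.0614), H/R 2 (-0.55, adjusted p = 0.0704) or H/R 3 (-0.59, adjusted p = 0.0557). The GA step was at 0.07 ± 0.19 (adjusted p = 0.784). Both steps combined gave a fall by 0.50 ± 0.19 (adjusted p = 0.0359), lost without control 1 (-0.29, adjusted p = 0.104), H/R 1 (-0.51, adjusted p = 0.0507), GA+H/R 1 (-0.39, adjusted p = 0.114) or GA+H/R 2 (-0.50, adjusted p = 0.0768). It was also lost with no filter (adjusted p = 0.0641), with only the 2 groups compared (0.0724) and with a replicate block (0.0593).

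**Figure D2:**
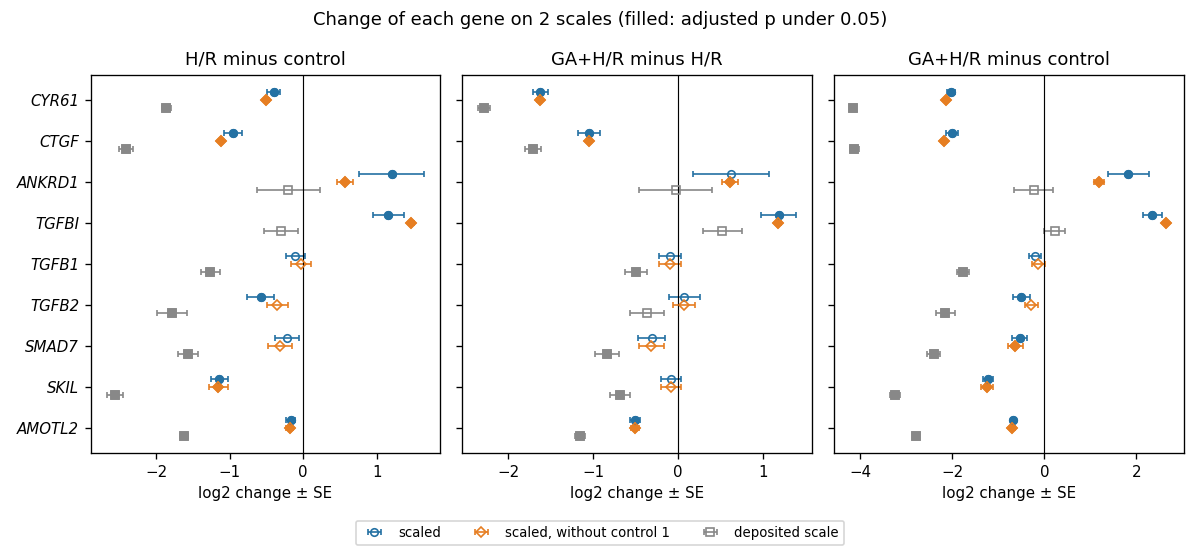
Log2 change ± SE of the 9 genes in the 3 comparisons, on the scaled values with and without control 1 and on the deposited scale, with filled symbols for an adjusted p under 0.05. On the deposited scale 7 of the 9 were called lower at the H/R step, and TGFBI (-0.30) and ANKRD1 (-0.20) were not called.

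The deposited scale moved nearly all loci down, and the 9 genes with them. By limma 7 were then called lower and 0 higher at the H/R step, where 90.2% of loci were called, 86.0% lower and 4.18% higher. The GA step gave 6 lower and 0 higher (66.0% called, 64.3% lower and 1.69% higher), and both steps combined 7 lower and 0 higher (94.2% called, 90.1% lower and 4.10% higher). An unadjusted p under 0.05 also gave 0 higher in each of the 3. By groups that do not overlap, 7 were lower at the H/R step (84.4% of loci lower, 4.94% higher), 7 lower and 1 higher at the GA step (71.0% and 3.46%), and 7 lower over both steps combined (88.2% lower, 4.74% higher). TGFBI and ANKRD1 were the 2 genes not called in any of these comparisons. In the authors' deposited table, a single test across the 3 groups marked 8 of the 9 genes as significant, as it did 56.0% of all loci. The exception was ANKRD1 (deposited q-value of 0.533), and TGFBI had a deposited q-value of 0.0429.

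The ratio of 2 genes within a library does not depend on the scale of that library. The log2 ratio of TGFBI to CTGF was -3.05, -4.54 and -4.44 in the controls, -1.86, -1.95 and -1.87 in H/R and 0.33, 0.35 and 0.35 in GA+H/R. It went up at each step without overlap, by 2.12 and then by 2.23. The log2 ratio of ANKRD1 to CTGF went up likewise, from -8.22 ± 0.89 to -6.01 ± 0.14 and -4.32 ± 0.13 (SD, n = 3). So these 2 readouts of the same pathways changed unequally with CTGF whatever scale is used. They were not alone in this. TGFB1 (by 0.82 and 0.92), SMAD7 (0.72 and 0.70) and AMOTL2 (0.79 and 0.54) also gained on CTGF at both steps without overlap. TGFB2 overlapped at the H/R step (0.25) and gained 1.14 at the GA step without overlap. CYR61 and SKIL are given below. CTGF itself fell by 0.95 and 1.05 at the 2 steps. Over all loci the median change was 0.00 at both and the 25th percentile -0.43 and -0.28. Most loci thus also gained on CTGF, and the share that did so without overlap was not counted.

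CYR61 and CTGF also parted from each other. Their log2 ratio was -0.73, -0.87 and -0.96 in the controls, -0.31, -0.30 and -0.29 in H/R and -0.90, -0.81 and -0.93 in GA+H/R. CYR61 thus lost less than CTGF in H/R and more than CTGF in GA+H/R, which overlapped the controls again (difference of the means -0.03). For SKIL the log2 ratio to CTGF overlapped between control and H/R (difference -0.23) and then lay above all H/R libraries in all GA+H/R libraries (difference 0.96). At the GA step SKIL itself was at -0.08 and CTGF at -1.05, so this rise is mostly the fall of CTGF. With 3 libraries a group the smallest two-sided p of an exact permutation test is 0.10, which these ratios reached wherever groups did not overlap, so none could pass 0.05. The 8 ratios were compared over the 3 comparisons, and their choice followed a look at the values.

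**Figure D3:**
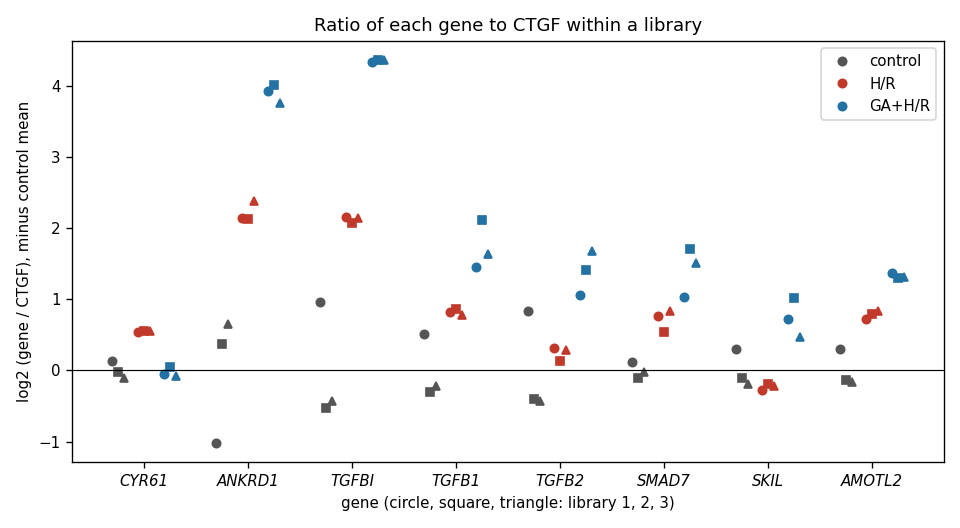
Log2 ratio of each of 8 genes to CTGF within each library, minus the mean of the controls, by group. TGFBI and ANKRD1 stepped up by 2.12 and 2.22 in H/R, and CYR61 stood above the controls in H/R and overlapped them in GA+H/R.

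Other genes of the 2 pathways were taken from lists of general knowledge, which hold some of the 9 genes as well. Of all loci, 28.4% fell and 29.2% rose at the H/R step, and 15.2% fell and 18.7% rose at the GA step. Ligands and activators of TGF-beta numbered 13 tested of 16, of which 7 fell and 1 rose at the H/R step (median -0.32) and 5 fell and 1 rose at the GA step (median -0.42). Without control 1, 12 were tested, of which 7 fell and 0 rose at the H/R step and 7 fell and 1 rose at the GA step. LTBP1, which tethers latent TGF-beta to the matrix, fell from 268 ± 69.0 to 105 ± 5.22 scaled FPKM (SD, n = 3) in H/R and to 53.3 ± 6.23 in GA+H/R (-1.31 and -0.97, adjusted p = 2.68e-04 and 0.00379 by limma). The integrin chain ITGAV, which activates latent TGF-beta, fell by 1.28 in H/R and was at -0.22 at the GA step (adjusted p = 0.220, and adjusted p = 5.80e-04 without control 1). The matrix protein THBS1, another activator, fell by 1.37 in H/R, and was at 633 scaled FPKM in control 1 against 1323 and 1366 in the other controls.

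The gene that rose at the H/R step was LRRC32, which docks latent TGF-beta on the surface of regulatory T cells and platelets. It was at 0.00764, 0.0270 and 0.0308 scaled FPKM in the controls and at 1.29, 1.17 and 1.06 in H/R. LRRC32 passed the expression filter only through the H/R libraries, so its count as a rise follows from the filter, and it was not tested without control 1. The gene that rose at the GA step was NRROS, which anchors latent TGF-beta on macrophages and microglia. It was between 0 and 0.920 scaled FPKM in the control and H/R libraries and at 9.39, 5.10 and 7.30 in GA+H/R. NRROS passed the filter only through the GA+H/R libraries, so its count as a rise follows from the filter too. It moved with the summed macrophage markers given above, and their part in it was not tested.

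Of 7 receptors, 4 fell at the H/R step (median -0.60). The type I receptor TGFBR1 fell from 218 ± 14.8 to 99.8 ± 3.78 scaled FPKM (SD, n = 3; -1.12, adjusted p = 5.13e-06 by limma), the type II receptor TGFBR2 by 0.60, the coreceptor TGFBR3 by 0.81 and the activin and BMP receptor ACVR1 by 0.96. At the GA step 6 fell and 1 rose, or 5 and 1 without control 1. TGFBR3 fell further by 0.93 and TGFBR2 by 0.48. The gene that rose was TGFBR1, by 0.29 (adjusted p = 0.0225), a call lost without H/R 2 (adjusted p = 0.0677), H/R 3 (0.0741), GA+H/R 1 (0.0708) or GA+H/R 3 (0.0668).

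Of the 5 tested genes of the signalling SMAD list, 4 fell at the H/R step (SMAD2, SMAD3, SMAD5 and SMAD9, with a median of -0.52 over the 5). The other, ZFYVE9, is not itself a SMAD, and without control 1 it rose by 0.20. SMAD1 and SMAD4 were not tested. SMAD9 and SMAD5, which carry BMP signals, fell by 0.75 and 0.71, and SMAD3, which carries TGF-beta signals, by 0.36. SMAD3 alone was called at the GA step, at -0.28 (adjusted p = 0.0199 by limma), a call lost without H/R 1 (adjusted p = 0.0587), H/R 3 (0.0754), GA+H/R 1 (0.0569) or GA+H/R 3 (0.0517). Of 10 inhibitors and repressors, SKIL and SMAD7 included, 4 fell and 1 rose at the H/R step, and 0 were called by limma at the GA step, where 1 had an unadjusted p under 0.05. That gene was TGIF1, which was called higher there without control 1 (0.36, adjusted p = 0.00880 by limma) and with only the 2 groups compared (0.37, adjusted p = 0.0142). SMURF2, the ubiquitin ligase that works with SMAD7, fell by 0.55 in H/R. The gene that rose was the corepressor TGIF1, by 0.47 (adjusted p = 0.0247), a call lost without control 2 (adjusted p = 0.0725), control 3 (0.0741), H/R 2 (0.0754) or H/R 3 (0.0610).

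TGF-beta targets numbered 23 tested, with TGFBI, CTGF, SMAD7 and SKIL among them. At the H/R step 10 fell and 3 rose (median -0.24), and without control 1 12 fell and 7 rose. The 3 that rose were TGFBI, TAGLN and, named after its values were seen, the BMP target ID1. The collagen genes COL1A2 and COL3A1 fell by 1.58 and 1.26, and the matricellular gene POSTN by 2.48, or by 3.35 without control 1. All of them, like COL1A1, are also in the list of fibroblast markers. POSTN was at 4.99 scaled FPKM in control 1, against 42.1 and 39.7 in the other controls. The contractile gene TAGLN rose by 1.32, with a deposited-scale change of -0.14. At the GA step 12 fell and 2 rose (median -0.81), and without control 1 16 fell and 2 rose. The 2 that rose were TGFBI and ID1, whose call was lost without H/R 1 (adjusted p = 0.0566 by limma), H/R 3 (0.0626) or GA+H/R 1 (0.0516). The elastin gene ELN fell by 1.17 at the GA step, and COL1A1, a type I collagen chain, fell by 2.36 over both steps combined.

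Among 7 YAP, TAZ, TEAD and VGLL genes, 3 fell and 4 rose at the H/R step (median 0.20), and 1 fell and 3 rose at the GA step (median 0.17). YAP1 fell from 628 ± 59.1 to 428 ± 16.5 scaled FPKM (SD, n = 3; -0.55 ± 0.07, adjusted p = 1.57e-04 by limma) and was at 433 ± 7.99 in GA+H/R, a change of 0.02 at the GA step (adjusted p = 0.852). VGLL3, a TEAD cofactor, fell by 0.73 at the H/R step and rose by 0.20 at the GA step (adjusted p = 0.0330 by limma). The call of that rise was lost with quantile normalization (adjusted p = 0.704), equal totals (0.351), plain eBayes (0.0829) or a replicate block (0.0570). It was also lost without any one of the H/R and GA+H/R libraries (adjusted p from 0.0505 to 0.0984). The TEAD factors TEAD2 and TEAD4 rose by 0.62 and 0.53 at the H/R step, and TEAD2 and TEAD3 by 0.55 and 0.66 at the GA step. The others that rose at the H/R step were TEAD3 and VGLL4, a TEAD cofactor that competes with YAP, and both calls were lost without any one of the H/R libraries (adjusted p from 0.0727 to 0.129 and from 0.0550 to 0.108 by limma), that of TEAD3 also without control 1 (0.0773), control 2 (0.0783), GA+H/R 2 (0.0540) or GA+H/R 3 (0.0567). On the deposited scale TEAD2 and TEAD4 were at -0.52 and -0.88 at the H/R step and TEAD2 at -0.01 at the GA step, and TEAD3 at 0.0059 there. With equal totals TEAD2 kept its calls at both steps (0.39 and 0.47), and TEAD4 was at 0.25 at the H/R step, not called (adjusted p = 0.178).

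Of 18 Hippo kinases, adaptors and AMOT genes, AMOTL2 included, 12 fell at the H/R step (median -0.37), where MAP4K4 rose by 0.21 without control 1, and 7 fell and 2 rose at the GA step (median -0.19). The kinase LATS1, which phosphorylates YAP, fell from 34.2 ± 1.46 to 16.9 ± 1.66 scaled FPKM (SD, n = 3; -0.98, adjusted p = 7.63e-05 by limma) and was at 18.4 ± 2.34 in GA+H/R. FAT4, a giant cadherin upstream of the pathway, fell by 1.20 and then by 0.88, and FRMD6, a FERM-domain protein upstream of the kinases, by 0.95 in H/R. TAOK3, of a kinase family upstream of Hippo signalling, fell by 0.95 at the GA step. MAP4K4, a kinase that can activate LATS, rose by 0.61 there, and was at -0.05 on the deposited scale.

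YAP targets numbered 17 tested, 5 of them among the 9 genes. At the H/R step 13 fell and 2 rose (median -0.40), or 11 and 2 without control 1. At the GA step 8 fell and 1 rose (median -0.29), or 9 and 2 without control 1, when ANKRD1 was called. Beside ANKRD1, the gene that rose at the H/R step was the stress gene GADD45A, named after its values were seen. It was also the gene that rose at the GA step, by 0.35, a call lost without control 2 (adjusted p = 0.0664 by limma) or any one of the H/R and GA+H/R libraries (adjusted p from 0.0576 to 0.122). Outside the 9 genes, CRIM1, a membrane protein that binds BMPs, fell by 0.85 and then by 0.43, RBMS3, an RNA-binding protein, by 0.85 in H/R, and the exchange factor ARHGEF17 by 0.59 and then by 0.63. In the CCN family, 3 genes were tested, and WISP1 fell with CYR61 and CTGF in H/R, by 0.92, a call lost without control 2 (-0.76, adjusted p = 0.0509 by limma), and was at 117 ± 44.1, 57.5 ± 1.71 and 33.7 ± 0.446 scaled FPKM (SD, n = 3) in control, H/R and GA+H/R.

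**Figure D4:**
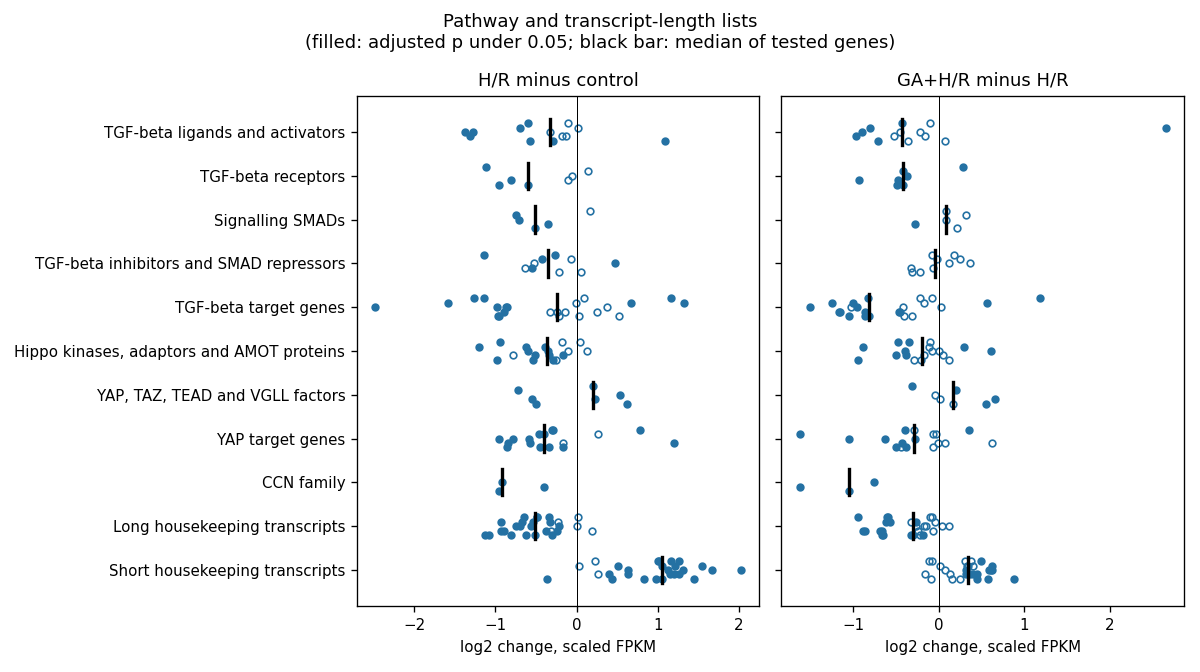
Log2 change of each tested gene in the pathway lists and in the housekeeping lists of long and short transcripts, for H/R against control and GA+H/R against H/R, with filled symbols for an adjusted p under 0.05 and a bar at the median. TGF-beta targets had a median of -0.24 and then -0.81, and short transcripts of 1.05 and then 0.34.

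Housekeeping lists of long and of short transcripts moved in opposite directions. The lists also differ in the functions of their genes. Of 27 long housekeeping transcripts 22 fell at the H/R step (median -0.51) and 15 fell at the GA step (median -0.30). Of 27 short ones 23 rose and 1 fell (median 1.05) and then 12 rose (median 0.34). The long transcripts ranged from -1.13 to 0.18 at the H/R step, a range that held CYR61 (-0.40), CTGF (-0.95), AMOTL2 (-0.17) and TGFB2 (-0.58), with SKIL (-1.15) at its lower edge. They ranged from -0.94 to 0.12 at the GA step, where CYR61 (-1.63) and CTGF (-1.05) lay lower and AMOTL2 (-0.50), SKIL (-0.08), SMAD7 (-0.31), TGFB1 (-0.10) and TGFB2 (0.07) lay inside. The short transcripts ranged from -0.37 to 2.02 at the H/R step, a range that also held TGFBI (1.16) and ANKRD1 (1.20). They ranged from -0.16 to 0.89 at the GA step, where ANKRD1 (0.62) lay inside and TGFBI (1.19) above. The quartiles of all loci were -0.43 and 0.50 at the H/R step and -0.28 and 0.29 at the GA step. A place inside these ranges is thus common. The lengths of the 9 genes were not used, and the part of length in their changes was not tested. In the table's own KEGG annotation, read after the lists, 68 loci of TGF-beta signalling were tested, of which 30 fell and 17 rose at the H/R step and 17 fell and 10 rose at the GA step. For 111 loci of Hippo signalling these counts were 43 and 30, and then 22 and 16. Over all loci 28.4% fell and 29.2% rose at the H/R step, and 15.2% fell and 18.7% rose at the GA step.

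The loci most like each gene over the 9 libraries, by Pearson's r of log2 scaled FPKM, are given as a description, since the libraries form only 3 groups. For CYR61 they were the membrane collagenase MMP14 (r = 0.998), SLC38A10 (0.997) and SRRM2 (0.994), and for AMOTL2 they were ERFE (0.996), MMP14 (0.993) and the fibronectin receptor chain ITGA5 (0.991). MMP14 was at 14.0 ± 1.15, 11.1 ± 0.191 and 5.35 ± 0.0737 scaled FPKM (SD, n = 3), with the larger step between H/R and GA+H/R as in CYR61. SRRM2, one of the long housekeeping transcripts above, had its larger step there too, at 121 ± 5.03, 102 ± 3.03 and 55.4 ± 0.914. For CTGF they were the collagen COL5A2 (0.999), FKBP9 (0.998) and the collagen receptor MRC2 (0.998), and COL5A2 went from 14616 ± 2840 to 6647 ± 118 and 2752 ± 20.2.

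For TGFBI the nearest were ALDH9A1 (0.998), the histone gene H3F3B (0.996) and S100A8 (0.994), a calcium-binding protein of myeloid cells, which was at 53.0 ± 21.5, 120 ± 0.550 and 238 ± 12.9 scaled FPKM (SD, n = 3). For ANKRD1 they were BNIP3 (0.989), a mitophagy receptor, CAP1 (0.988) and C4H20orf27 (0.983), and for SKIL they were SLAIN2 (0.995), TBC1D8B (0.991) and EML4 (0.991). TGFB2 was most like STX17 (0.982), CREB1 (0.972) and FASTKD1 (0.970), SMAD7 most like VIT (0.967), B4GAT1 (0.959) and TP53BP1 (0.957), and TGFB1 most like ZNF532 (0.952), TRMT11 (0.913) and LOC108176509 (0.912). An r over 0.9 was common for CTGF, TGFBI and SKIL (11.4%, 14.3% and 10.3% of loci with a single symbol) and rare for TGFB1, TGFB2 and SMAD7 (0.0848%, 0.528% and 0.405%). The shares for CYR61, AMOTL2 and ANKRD1 were 5.63%, 6.16% and 1.52%.

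Among the 9 genes, CYR61 and AMOTL2 were most alike (r = 0.99 over 9 libraries), followed by CTGF with AMOTL2 (0.96) and with CYR61 (0.95). TGFBI was opposite to CTGF (-0.997) and to CYR61 (-0.94), and ANKRD1 was lowest against TGFB2 (-0.88). The share of all loci with such negative values was not counted. SKIL was nearer to CTGF (0.85) than to CYR61 (0.69), and the difference between these 2 values was not tested.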

How the data were processed

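RNA sequencing libraries of 3 groups of 3 were used, made from total RNA with Vazyme's TruePrep RNA kit, per the labels' protocols. The deposited values are FPKM per locus, per the file headers, and the same table has a deposited p-value and a deposited q-value per locus, from 1 test by the authors across the 3 groups. No source used here names the aligner, the quantification tool or the scaling between libraries. The submitters' processing notes list mouse builds only (GRCm38 and mm10) while the transcripts are of rabbit, so neither coordinates nor sequences are given.

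A factor per library, the median ratio of its FPKM to the 9-library mean at the 8448 loci with at least 1 FPKM throughout, divided its values. The filter kept the 10956 loci with a scaled FPKM of 1 or more in 3 or more libraries. On log2(scaled FPKM + 1), limma (3.58.1, R 4.3.3) was fitted with group means over the 9 libraries, and eBayes used its trend and robust options. P-values are two-sided and adjusted over all loci. The fit was also run on simulated data with a small set of loci lowered in otherwise equal groups. That run cannot check the rescaling, since the median locus did not move in it. Fold changes of low genes are understated by the added 1.

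The members, lists and main scale were chosen with earlier results of these data known. List genes named are among up to 4 called per list and comparison by size of change, unless said otherwise, and the 3 loci most like each member are named. KEGG counts were added after the lists had been read. Alternatives were the deposited scale, quantile normalization, equal totals, a pseudocount of 0.1, no filter, 2 groups only, plain eBayes, a replicate block and leaving out each library. Depth is unknown, so precision rests on the spread between libraries.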

Additional observations from a re-analysis of the deposited data

How the results depend on the processing

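Of 17 alternatives per comparison, the deposited scale moved most. It called 9922 loci at the H/R step (H/R minus control) and 7255 at the GA step (GA+H/R minus H/R), with 0 members higher in each of the 3 comparisons and 6 lower at the GA step. At the H/R step 1 member was higher, not 2, with equal totals, a pseudocount of 0.1, no filter or only the 2 groups compared, since ANKRD1 was no longer called. At the GA step 2 were higher with only the 2 groups compared. Leaving out 1 library gave 5424 to 6396 loci called, 1 to 2 members higher and 3 to 5 lower at the H/R step, 2709 to 4556, 1 to 2 and 3 to 3 at the GA step, and 6803 to 7431, 2 to 2 and 5 to 6 for GA+H/R minus control. Same-numbered libraries did not deviate together (r from -0.02 to 0.03), so no pairing by number was seen. Whether libraries share animals, cultures or batches cannot be told from this. With a replicate block 6142, 3385 and 7441 loci were called in the 3 comparisons, with 2, 1 and 2 members higher and 4, 3 and 5 lower, and the calls of AMOTL2 at the H/R step (adjusted p = 0.0627 by limma) and TGFB2 in GA+H/R minus control (0.0593) were lost.

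Directions turned as follows (log2 change), and the cause was not tested. On the deposited scale at the H/R step these were ANKRD1 -0.20, TGFBI -0.30, GADD45A -0.52, ID1 -0.71, MAP4K4 -1.33, NRROS -0.26, TAGLN -0.14, TEAD2 -0.52, TEAD3 -1.19, TEAD4 -0.88, TGIF1 -0.96 and VGLL4 -1.23. At the GA step they were ANKRD1 -0.0304, GADD45A -0.25, ID1 -0.0706, LATS1 -0.49, MAP4K4 -0.0539, SMAD5 -0.55, SMAD9 -0.28, TEAD2 -0.0144, TGFB2 -0.37, TGFBR1 -0.37, TGIF1 -0.28, VGLL3 -0.46 and YAP1 -0.64. In GA+H/R minus control they were ANKRD1 -0.23, GADD45A -0.77, ID1 -0.78, MAP4K4 -1.38, TAGLN -0.98, TEAD2 -0.54, TEAD3 -1.18, TEAD4 -1.55 and TGIF1 -1.25. Quantile normalization turned AMOTL2 (0.059) and NRROS (-0.0657) at the H/R step and YAP1 (-0.10) at the GA step. Equal totals turned MAP4K4 (-0.16), NRROS (-0.0285), TEAD3 (-0.0523) and VGLL4 (-0.0812) at the H/R step and YAP1 (-0.0653) at the GA step. Equal totals also ended the calls of TEAD4, ID1 and TGIF1 at the H/R step (0.25, 0.40 and 0.19). At the GA step they ended those of ID1, TGFBR1, GADD45A and VGLL3 (0.48, 0.20, 0.27 and 0.12). Leaving out 1 library turned NRROS (range -0.141 to 0.2871, below 0 without control 1, control 2, H/R 1 or H/R 2) at the H/R step. At the GA step it turned YAP1 (-0.0041 without H/R 3, range to 0.0537), TGFB1 (0.0031 without GA+H/R 1, range from -0.2284), and without GA+H/R 3 SKIL (-0.1907 to 0.0426), TEAD4 (-0.1288 to 0.0669) and TGFB2 (-0.0467 to 0.194). Of the 459 alternative values of the members, 406 kept direction and side of the threshold.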
